A study of Mus musculus with 16 samples.

Results

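The genes described here encode the working parts of the lysosome other than its cathepsins. They are 13 glycan hydrolases, 7 proteins of lipid breakdown, 2 proteases, 9 proteins of the lysosomal membrane, 6 subunits of the proton pump and the transcription factors Tfeb and Tfe3. They were listed by name, with no reference to their signals, and make up 39 of the 20284 genes with a named probe on the array. All 39 had a probe. Both probes of Atp6v0d2, the proton pump subunit best known from osteoclasts, were not well above background on any of the 16 arrays, so 38 genes entered the tests in each cell system. Of these, 37 were well above background on all 8 progenitor arrays and 37 on all 8 cell line arrays, the exception in both being the protease gene Lgmn.

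Lysosomes digest what a cell takes up and what autophagy delivers. The proton pump, a V-type ATPase, acidifies the lumen, soluble acid hydrolases cut sugars, lipids and proteins there, and heavily glycosylated membrane proteins such as LAMP1 and LAMP2 shield and supply the organelle. The related factors TFEB and TFE3 enter the nucleus when the kinase mTORC1 is inactive and bind E-box motifs near the start sites of many lysosomal genes. Mononuclear phagocytes are rich in lysosomes, and neutrophils store some of the same enzymes in their granules.

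RNA was hybridised to 16 single-colour arrays, 2 for each of 8 groups. Monocyte-dendritic cell progenitors (MDPs) and common monocyte progenitors (cMoPs), which arise from MDPs, had been sorted from the bone marrow of wild-type (WT) mice and of mice deficient in Irf8 (Irf8KO), a transcription factor required for monocyte and dendritic cell development. The knockout was not restricted to a cell type by any label, and the mice's strain and age are not given in the sources used here. 32Dcl.3 cells, a clonal mouse myeloid progenitor line grown in conditioned medium of WEHI3B cells, each received a pair of MSCV retroviruses and were collected 3 days later. The pair was empty MSCV-IRES-hCD8t with empty MSCV-IRES-puro, empty MSCV-IRES-hCD8t with MSCV-C/EBPalpha-IRES-puro, MSCV-IRF8-IRES-hCD8t with empty MSCV-IRES-puro, or both vectors that carry a factor. C/EBPalpha is a transcription factor of granulocyte and monocyte commitment. The 2 samples of a group are labelled as separate experiments, and no source used here says whether animals were pooled.

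Signals are given as multiples of the array's own 75th percentile, and changes on the log2 scale with their standard error (SE) from a limma fit to the 8 arrays of a cell system. A gene is said to have risen or fallen where limma's p, adjusted by Benjamini-Hochberg over all genes of the comparison, was under 0.05. Replicate arrays of a group correlated at 0.9951 to 0.998, and for the lysosomal genes the SD of the difference between replicates was 0.0673 to 0.177 on the log2 scale. MDPs, cMoPs and 32Dcl.3 cells each had a slide of their own. Within each slide, position on the slide coincided with genotype or factor, so the effects cannot be told apart. Irf8's own probe changed by -0.55 ± 0.037 (SE) in Irf8KO MDPs and by -1.48 ± 0.037 in Irf8KO cMoPs and stayed well above background there. In 32Dcl.3 cells the probes of Irf8 and Cebpa were not well above background on any array, so they do not check which factor a culture received. The progenitor markers Kit, Flt3, Csf1r, Cx3cr1, Ly6c1 and Cd34 were well above background on all 8 progenitor arrays. In 32Dcl.3 cells the myeloid genes Mpo, Elane, Prtn3, Il3ra, Csf2rb and Csf3r were detected on all 8 arrays. In bulk RNA, fewer cells of a type and less RNA per cell cannot be told apart.

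The choice of scaling matters for small changes. When arrays were scaled to their median in place of the 75th percentile, the median change of all genes moved to -0.34 (from -0.03) in Irf8KO cMoPs. With C/EBPalpha it moved to -0.45 (from -0.14), and for the joint transduction to -0.75 (from -0.10). The median of the 38 genes in each comparison is therefore set beside the median of all genes. That distance is the same under both scalings by arithmetic, since each shifts all genes of an array alike. Other settings moved it. For both factors it was 1.22, with 0.59 when dim probes were kept and 1.42 in the deposited series values. With C/EBPalpha these were 0.67, 0.32 and 0.77. In Irf8KO cMoPs it was 0.07, and -0.04 when dim probes were kept.

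Some of these genes carry the E-box that TFEB and TFE3 recognise. RefSeq start-site windows (GRCm38.p6, 250 bases before to 50 after each start) were found for 33 of the 39 genes. The core CACGTG, a palindrome that reads the same on both strands, lay in a window of 11 of these 33 genes (33.3%), of 14 of 56 other lysosomal genes (25.0%) and of 2187 of 27025 genes in all (8.09%). The longer palindrome TCACGTGA, which contains the core, lay in 5 of the 33 (15.2%), 7 of the 56 (12.5%) and 304 of the 27025 (1.12%). A match is a description of the sequence and says nothing about binding in these cells. 4 stretches just upstream of start sites are printed 5′ to 3′ to show the range, with every CACGTG and TCACGTGA in capitals. Lamp1 has the most matches, Mcoln1 has a core and a longer motif, Naglu has a single core, and Psap, the gene with the largest rise in 32Dcl.3 cells, has none in its windows.
Lamp1 (chr8:13159070-13159160, plus strand): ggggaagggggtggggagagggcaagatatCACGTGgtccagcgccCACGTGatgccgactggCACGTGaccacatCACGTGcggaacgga
Mcoln1 (chr8:3500418-3500509, plus strand): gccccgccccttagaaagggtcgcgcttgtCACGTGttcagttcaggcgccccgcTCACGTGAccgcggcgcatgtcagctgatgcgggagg
Naglu (chr11:101069991-101070056, plus strand): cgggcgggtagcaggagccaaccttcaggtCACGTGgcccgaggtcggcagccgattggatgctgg
Psap (chr10:60277548-60277627, plus strand): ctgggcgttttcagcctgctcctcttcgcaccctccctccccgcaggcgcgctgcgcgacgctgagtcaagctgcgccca
In Lamp1 the 4 cores begin 61, 45, 28 and 15 bases before the start site. In Mcoln1 they begin 71 and 45 bases before it, and in Naglu 73. The other genes with a core were Atp6v0d1, Atp6v1a, Cln3, Gaa, Gla, Glb1, Lgmn and Sgsh.

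**Figure D1:**
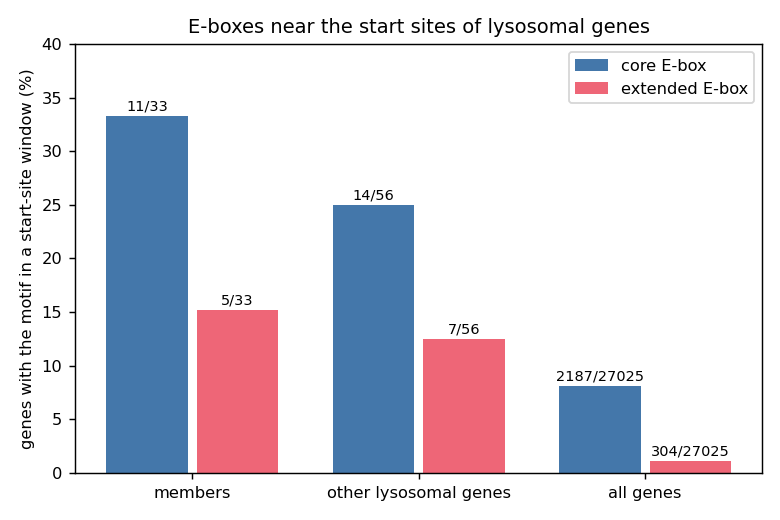
Percent of genes with a core E-box (CACGTG, blue) or its longer form (TCACGTGA, red) in a RefSeq start-site window, for the 33 lysosomal genes described here, 56 other lysosomal genes and all 27025 genes; bar labels give the counts. The core lay in 33.3% of the lysosomal genes and in 8.09% of all genes.

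Loss of Irf8 and gain of IRF8 or C/EBPalpha moved these genes by different amounts. In the knockouts most changes were below 2-fold and went both ways. In 32Dcl.3 cells with both factors nearly the whole set was higher.

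**Figure D2:**
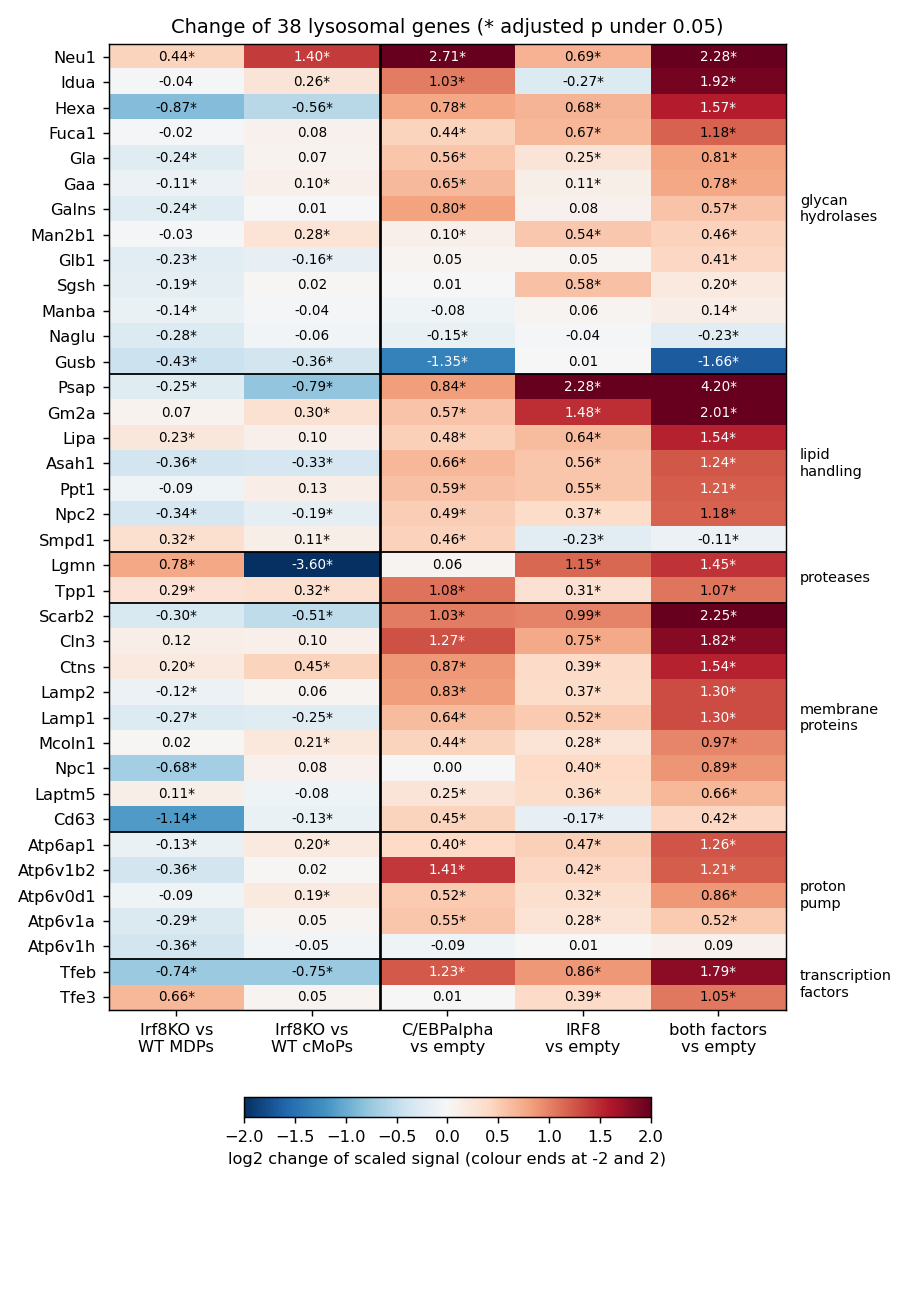
Log2 change of the scaled signal of 38 lysosomal genes (lines, grouped by role) in 5 comparisons (columns), with an asterisk where limma's adjusted p was under 0.05; red is higher, blue lower. The column for both factors is nearly all red, with Gusb (-1.66), Naglu (-0.23) and Smpd1 (-0.11) below 0, and the Lgmn value in Irf8KO cMoPs has no exact size because the probe was not well above background there.

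At the earlier stage, MDPs, the question was what loss of Irf8 changed. Lysosomal genes fell more often than they rose, and the tetraspanin gene Cd63, the hexosaminidase gene Hexa and Tfeb had the largest falls. Of 38 genes 8 rose and 22 fell, against 22.8% higher and 28.6% lower among all 11963 genes tested. The median change was -0.14, against -0.02 for all genes. With arrays scaled to their median the split was 4 higher and 22 lower.

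Among the 13 glycan hydrolases of MDPs, 9 fell and 1 rose. Hexa, the alpha subunit of beta-hexosaminidase, which degrades GM2 ganglioside, had signals of 92.3 and 96.1 in WT MDPs and of 50.7 and 52.6 in Irf8KO MDPs. The groups did not overlap, and the change was -0.87 ± 0.040 (SE, limma adjusted p = 5.78e-08). Gusb, the beta-glucuronidase gene, went from 64.4 and 63.4 to 47.2 and 47.7 (-0.43 ± 0.032). Neu1, the sialidase that trims glycoproteins, was the 1 hydrolase that rose, from 19.0 and 18.2 to 25.5 and 25.2 (0.44 ± 0.035). The other falls lay between -0.28 (Naglu) and -0.11 (Gaa), and Fuca1, Idua and Man2b1 did not pass. Second probes of some genes went the opposite way, at 0.41 against -0.19 for Sgsh, the heparan sulfamidase gene, and at 0.12 against -0.04 for Idua. The falls of Sgsh, Gla and Gaa ended without single arrays, for example without WT array 1 (-0.13, -0.16 and -0.10).

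Of the 7 lipid genes of MDPs 3 fell and 2 rose. Asah1, the acid ceramidase gene, fell by 0.36 on the log2 scale and Npc2, a soluble cholesterol carrier, by 0.34. Psap encodes the precursor of the saposins, small proteins that present sphingolipids to their hydrolases. Its signals of 48.2 and 49.9 in WT and 41.1 and 41.4 in Irf8KO MDPs gave a change of -0.25 ± 0.034. Smpd1, acid sphingomyelinase, rose by 0.32 ± 0.037 and Lipa, acid lipase, by 0.23 ± 0.045. The Lipa call ended with the median scaling (0.14, adjusted p = 0.172) and with normexp background correction (0.01, adjusted p = 0.889).

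Both proteases of the list rose in MDPs. Lgmn, the asparaginyl endopeptidase legumain, had signals of 3.22 and 2.81 in WT and 5.23 and 5.13 in Irf8KO MDPs, a change of 0.78 ± 0.21 (adjusted p = 0.0109). Its call ended without WT array 2 (0.69, adjusted p = 0.0781), without Irf8KO array 1 (0.77, adjusted p = 0.0627) or without Irf8KO array 2 (0.80, adjusted p = 0.0555). Tpp1, tripeptidyl peptidase, rose by 0.29 ± 0.070, a call lost with the median scaling (0.19, adjusted p = 0.11).

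Among the 9 membrane protein genes of MDPs 5 fell and 2 rose. Cd63, a tetraspanin of late endosomes and lysosomes, had signals of 27.4 and 25.2 in WT and 12.3 and 11.5 in Irf8KO MDPs. No Irf8KO array came near a WT array, and the change of -1.14 ± 0.046 (adjusted p = 1.99e-08) was the one fall past 2-fold. Npc1, the cholesterol exporter, was dim, at 0.358 and 0.458 against 0.256 and 0.251 (-0.68 ± 0.15), and normexp background correction ended its call (-0.11, adjusted p = 0.247). Lamp1 went from 264 and 262 to 219 and 217 (-0.27 ± 0.035). Lamp2 changed by -0.12 ± 0.041 and Laptm5, a membrane protein of blood cell lysosomes, by 0.11 ± 0.037. Both calls ended under several settings. Without WT array 1 Lamp2 was at -0.07 (adjusted p = 0.165) and Laptm5 at 0.08 (adjusted p = 0.124). Without Irf8KO array 2 Lamp2 was at -0.10 (adjusted p = 0.146), and without Irf8KO array 1 Laptm5 was at 0.09 (adjusted p = 0.14). Scarb2 also fell, by 0.30, and Ctns rose by 0.20, a call lost with normexp (0.03) and by array median (0.11). The 3 probes of Cln3, which did not pass, gave 0.12, 0.59 and -0.11.

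Of the 5 listed proton pump genes measured in MDPs 4 fell and none rose, while of 12 further pump subunits 4 rose and none fell. Atp6v1h and Atp6v1b2, subunits of the ATP-hydrolysing part, both changed by -0.36, Atp6v1a, its catalytic subunit, by -0.29 and the accessory subunit gene Atp6ap1 by -0.13. Atp6v0d1, of the membrane part, had signals of 17.0 and 18.3 in WT and 16.5 and 16.6 in Irf8KO MDPs and did not pass (-0.09 ± 0.040, adjusted p = 0.0756), but passed with normexp background correction (-0.21, adjusted p = 0.00126) and without WT array 1 (-0.14, adjusted p = 0.0123). The Atp6ap1 call ended under most settings, for example without Irf8KO array 2 (-0.07, adjusted p = 0.278). The Atp6v1b2 call ended without WT array 2 (-0.30, adjusted p = 0.0554) or Irf8KO array 1 (-0.23, adjusted p = 0.0619). The 2 transcription factor genes went opposite ways. Tfeb went from 1.3 and 1.39 to 0.780 and 0.830 (-0.74 ± 0.13) and Tfe3 from 8.06 and 7.18 to 11.9 and 12.2 (0.66 ± 0.055, adjusted p = 4.2e-06), with no overlap between the groups for either gene.

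In cMoPs the same comparison gave equal numbers of rises and falls, with larger extremes. Of 38 genes 11 rose and 11 fell, against 23.0% higher and 31.1% lower among all genes tested. The median was 0.05, against -0.03 for all genes. With arrays scaled to their median 1 gene, Neu1, was higher and 27 were lower, so the small rises named below depend on the scaling. Under quantile normalization 14 were higher and 9 lower.

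Neu1 had the largest rise in cMoPs. Its signals were 16.7 and 16.4 in WT and 43.3 and 43.8 in Irf8KO cMoPs, a change of 1.40 ± 0.035 (adjusted p = 2.66e-10). Among the other glycan hydrolases Man2b1, a lysosomal alpha-mannosidase, rose by 0.28, Idua, alpha-L-iduronidase, by 0.26 and Gaa, the glycogen-degrading acid alpha-glucosidase, by 0.10. Man2b1, Idua and Gaa turned to -0.03, -0.06 and -0.22 with the median scaling, and the Gaa call also ended without single cMoP arrays (0.07 to 0.10). Hexa went from 48.4 and 51.3 to 33.5 and 34.0 (-0.56 ± 0.040), Gusb changed by -0.36 ± 0.032 and Glb1, beta-galactosidase, by -0.16. The other 6 hydrolases did not pass.

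Psap had the largest fall among the lipid genes of cMoPs. Its signals were 51.2 and 52.8 in WT and 30.3 and 30 in Irf8KO cMoPs, a change of -0.79 ± 0.034 (adjusted p = 1.77e-08). Asah1 changed by -0.33 and Npc2 by -0.19. Gm2a, the activator protein that hands GM2 ganglioside to hexosaminidase, rose from 5.32 and 5.18 to 6.63 and 6.30 (0.30 ± 0.047), a value of -0.01 with the median scaling. Smpd1 rose by 0.11 ± 0.037, which turned to -0.21 by array median and ended without WT array 1 (0.09), WT array 2 (0.12) or Irf8KO array 2 (0.08). The Npc2 call ended without WT array 2 (-0.12, adjusted p = 0.0893).

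Lgmn was the gene with the largest change of all in cMoPs. Its signals were 0.623 and 0.625 in WT cMoPs, and in Irf8KO cMoPs they were 0.0691 and 0.0385 and not well above background on either array. Set against the faintest signal well above background on those arrays, Lgmn was at least 5.38-fold lower in Irf8KO cMoPs (limma adjusted p = 1.96e-07). Its direction was thus opposite to that in MDPs. Tpp1 rose by 0.32 ± 0.070, a value of 0.00 with the median scaling.

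Of the membrane protein genes in cMoPs, 3 fell and 2 rose. Scarb2, the receptor that carries glucocerebrosidase to lysosomes, went from 2.93 and 2.95 to 2.06 and 2.08 (-0.51 ± 0.057), and Lamp1 from 171 and 169 to 144 and 142 (-0.25 ± 0.035). Cd63, which had the largest membrane protein change in MDPs, changed by -0.13 ± 0.046 here, a call that ended without any 1 of the 4 cMoP arrays (-0.14 to -0.13). Ctns, the cystine exporter, rose from 4.96 and 4.90 to 6.59 and 6.92 (0.45 ± 0.048), with 0.14 (adjusted p = 0.134) by array median, and Mcoln1, a cation channel, rose by 0.21, with -0.11 by array median. Lamp2 (0.06 ± 0.041) and Laptm5 (-0.08 ± 0.037) did not pass. Laptm5 passed by array median (-0.40) and with the mean of its probes (-0.13), and Lamp2 passed as higher over detected probes (0.10) and after quantile normalization (0.12) and as lower by array median (-0.25). Atp6v0d1 (0.19 ± 0.040) and Atp6ap1 (0.20 ± 0.048) were the 2 of 5 proton pump genes that rose, and they turned to -0.13 and -0.12 with the median scaling. Tfeb went from 0.869 and 0.955 to 0.475 and 0.622 (-0.75 ± 0.13), and Tfe3 did not pass (0.05 ± 0.055).

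**Figure D3:**
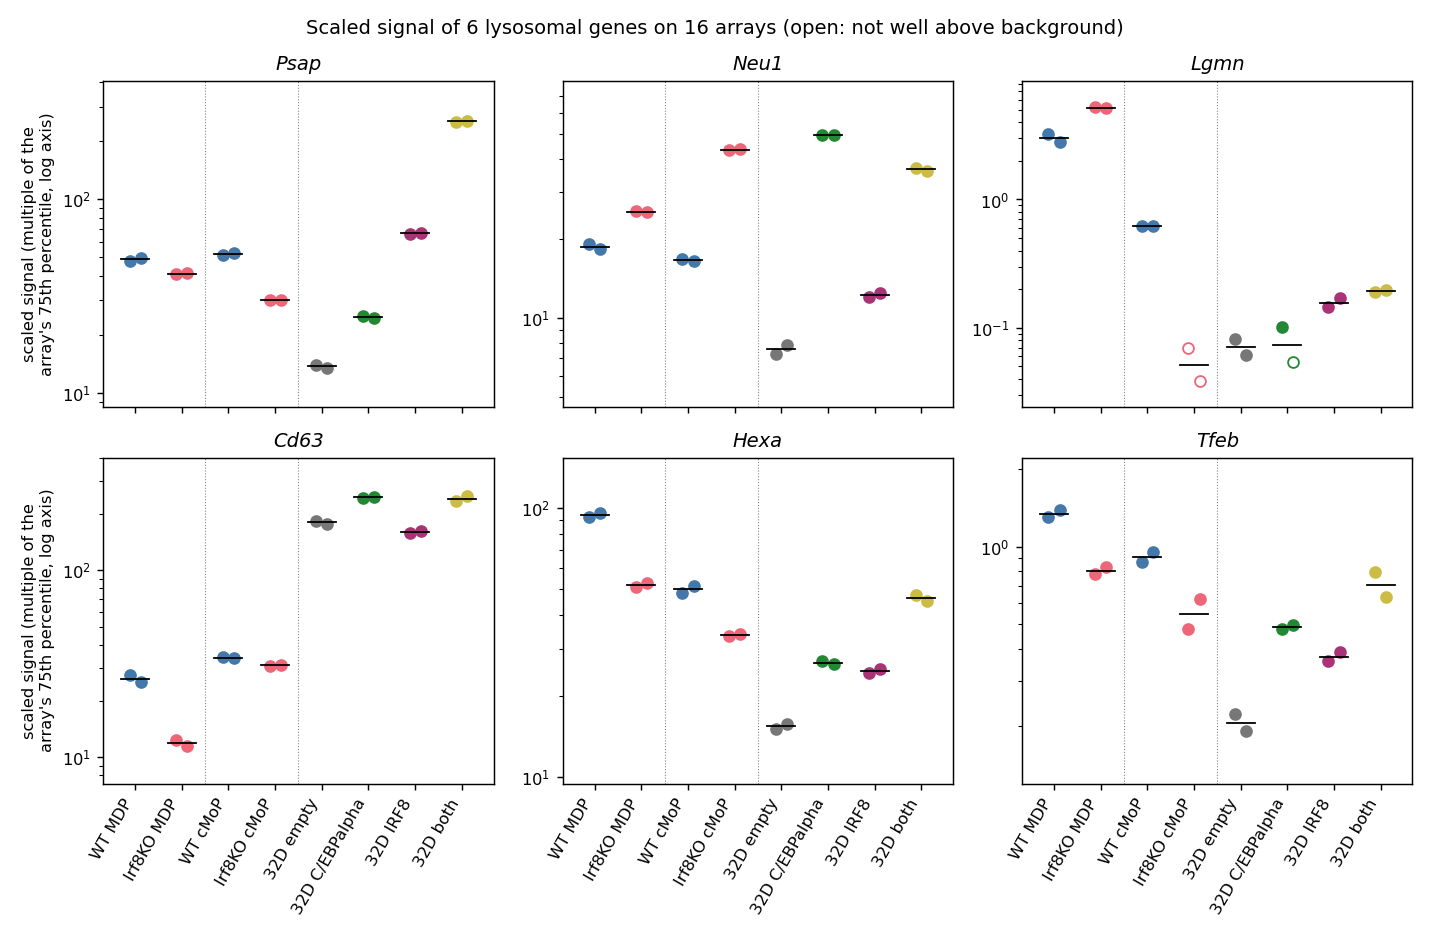
Scaled signal (multiples of the array's 75th percentile, log axis) of 6 lysosomal genes on each of the 16 arrays, with a bar at each group's mean log2 value and open symbols where the probe was not well above background. Psap reached 251 and 254 with both factors in 32Dcl.3 cells, and Lgmn was not well above background in Irf8KO cMoPs.

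A direct test of the stages subtracted each gene's Irf8KO change in MDPs from its change in cMoPs. Stage coincided with slide, with a lower range of 75th percentiles on MDP arrays (67.8 to 81.0, against 456 to 568 for cMoPs), and with sex-linked transcripts, since Xist was well above background on all 4 MDP arrays and on no cMoP array, and Ddx3y the other way round. These cannot be told apart. Of 38 lysosomal genes 18 differences were positive and 5 negative, against 11.6% and 13.3% of all genes. The median was 0.20, against -0.01 for all genes. With arrays scaled to their median 2 were positive and 7 negative, so the lean toward positive differences depends on the scaling.

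Cd63 differed by 1.01 ± 0.066 between the stages (adjusted p = 3.29e-06), Neu1 by 0.96 ± 0.049 and Npc1 by 0.75 ± 0.22. The Npc1 difference was 0.14 (adjusted p = 0.34) with normexp background correction and 0.53 (adjusted p = 0.105) by array median. Of the pump genes Atp6v1a differed by 0.34 ± 0.070, Atp6ap1 by 0.33 ± 0.068 and Atp6v0d1 by 0.28 ± 0.057. Each of those 3 calls ended when arrays were scaled to their median, at 0.12, 0.10 and 0.06. Gla, alpha-galactosidase A, differed by 0.32 ± 0.10 and Lamp2 by 0.18 ± 0.058, calls that ended when any of several arrays was left out. Sgsh did not pass at 0.22, and its second probe gave -0.17. Lgmn rose in MDPs and was at least 5.38-fold lower in cMoPs, and the difference passed (adjusted p = 4.8e-06) but has no exact size, since the probe was not well above background in Irf8KO cMoPs. On the negative side Tfe3 differed by -0.61 ± 0.078, Psap by -0.54 ± 0.048, Smpd1 by -0.21 ± 0.053 and Laptm5 by -0.20 ± 0.053. Tfeb and Lamp1, which fell at both stages, gave differences of -0.01 ± 0.19 and 0.02 ± 0.049 that did not pass.

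**Figure D4:**
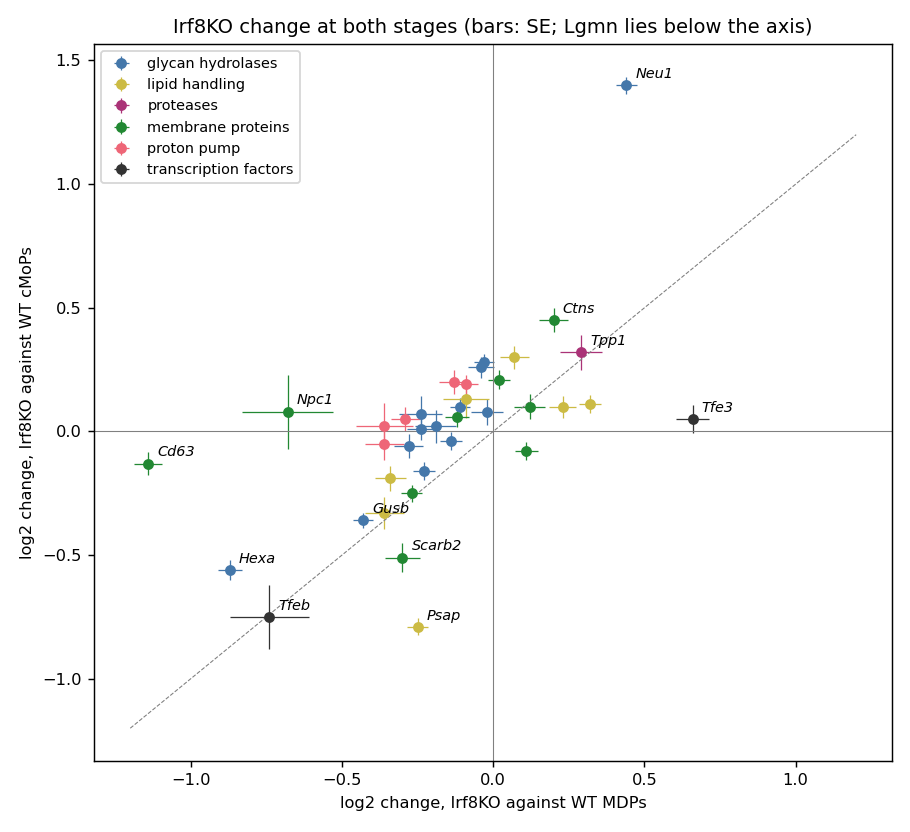
Log2 change in Irf8KO against WT MDPs (horizontal) and against WT cMoPs (vertical) of 37 lysosomal genes, coloured by role, with SE bars; points on the dashed line changed equally. Cd63 lies far left at -1.14 in MDPs and Neu1 at the top at 1.40 in cMoPs, and Lgmn, not well above background in Irf8KO cMoPs, is outside the axes.

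Genes that mark other cells differed by genotype. The summed signal of 10 late neutrophil genes was 10.8 to 12.8 in WT and 98.1 to 100 in Irf8KO MDPs, and 36.9 to 37.1 in WT and 580 to 602 in Irf8KO cMoPs. The MDP sum rested on Mmp8 (change of 5.15), S100a8 (3.78) and Lcn2 (1.46), while Camp (-1.99), Ltf (-1.63) and S100a9 (-1.38) fell, so of 8 genes tested 3 rose and 3 fell. In Irf8KO cMoPs 8 of 8 rose. Retnlg and Mmp9 were not well above background on any progenitor array. The 6 erythroid genes summed to 14.3 to 14.8 in WT and 0.346 to 0.471 in Irf8KO MDPs, and to 7.78 to 7.79 and 0.59 to 0.705 in cMoPs. None of the 6 was well above background on either Irf8KO MDP array, so the sum there is not a measured level. Basophil, mast cell and eosinophil genes (10) summed to 21.1 to 21.3 in WT and 3.98 to 4.45 in Irf8KO MDPs, and to 6.5 to 6.76 and 7.49 to 8.04 in cMoPs. Of 9 tested, 9 fell in Irf8KO MDPs, where 28.6% of all genes did. The filter favours falls here, since 9 of the 10 were well above background on each WT MDP array. On the Irf8KO MDP arrays 3 and 4 were. In Irf8KO cMoPs the sum hid 4 falls, the largest that of Gata2 (-4.09), beside 2 rises, Epx (0.71) and Mcpt8 (0.34). Of the 10 genes 2 were well above background on each Irf8KO cMoP array and 4 on each WT cMoP array. The sizes of these falls may therefore not be exact. The 8 dendritic cell genes summed to 140 to 146 in WT and 159 to 164 in Irf8KO MDPs and to 213 to 218 and 230 to 240 in cMoPs. The 7 B cell genes summed to 36.4 to 37.3 and 50.7 to 51.7 in MDPs and to 15.5 to 15.7 and 16 to 16.1 in cMoPs. Single genes of these lists moved further and in both directions. In Irf8KO MDPs Vpreb1 changed by 3.14 ± 0.086, Itgax by 3.00 ± 0.37 and Clec9a by -3.28 ± 0.35. Of 6 dendritic cell genes tested 3 rose and 1 fell in MDPs, and 2 rose and 2 fell in cMoPs. Of 3 B cell genes tested 3 rose in MDPs, and 2 rose and 1 fell in cMoPs. Among all genes tested 22.8% rose and 28.6% fell in MDPs, and 23.0% and 31.1% in cMoPs. A gene was tested if well above background in any 1 group, so these splits lean toward the genotype where a list was detected. The summed signal of 11 macrophage genes was 3.32 to 3.62 in WT and 6.11 to 6.34 in Irf8KO MDPs, and 3.31 to 3.32 and 6.71 to 6.74 in cMoPs, most of it from Adgre1. C1qa, C1qc, Mertk and Gpnmb were not well above background on any progenitor array. The part of these cells in the lysosomal results was not tested.

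The 32Dcl.3 comparisons asked what C/EBPalpha, IRF8 or both changed in a progenitor line. The 3 comparisons with empty vectors share those control arrays. With C/EBPalpha alone most of the lysosomal genes rose, led by Neu1. Of 38 genes 29 rose and 2 fell, against 31.6% higher and 47.1% lower among all 13337 genes tested. At least 2-fold rises numbered 7, against 11.2% of all genes. The median was 0.53, against -0.14 for all genes. With arrays scaled to their median the split was 24 higher and 9 lower.

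Neu1 had signals of 7.30 and 7.86 with empty vectors and of 49.4 and 49.7 with C/EBPalpha, a change of 2.71 ± 0.037 (adjusted p = 3.05e-14). Of the 13 glycan hydrolases 8 rose and 2 fell with C/EBPalpha. Gusb went the other way, from 33.6 and 34.0 to 13.3 and 13.2 (-1.35 ± 0.027, adjusted p = 8.14e-13). Naglu, a heparan sulfate hydrolase, changed by -0.15 ± 0.044. Its call ended without empty vector array 2 (-0.09, adjusted p = 0.0879) or C/EBPalpha array 2 (-0.11, adjusted p = 0.0739), and its sign turned under 3 scalings, at 0.05 to 0.07.

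All 7 lipid genes rose with C/EBPalpha, by 0.46 (Smpd1) to 0.84 (Psap). Psap went from 14.0 and 13.5 to 24.8 and 24.3 (0.84 ± 0.029). The peptidase gene Tpp1 rose from 0.935 and 1.06 to 2.08 and 2.13 (1.08 ± 0.063). For Lgmn, at 0.0824 and 0.0614 against 0.102 and 0.0541, the groups overlapped and the change did not pass.

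Of 9 membrane protein genes 8 rose with C/EBPalpha. Cln3, the membrane protein altered in juvenile Batten disease, went from 3.43 and 3.54 to 8.08 and 8.76 (1.27 ± 0.044), and Scarb2 from 1.57 and 1.57 to 3.16 and 3.27 (1.03 ± 0.039). Lamp2 changed by 0.83 ± 0.036, Lamp1 by 0.64 ± 0.031 and Laptm5 by 0.25 ± 0.048, the last at -0.06 with the median scaling. Npc1 did not pass, at 0.00 ± 0.056, with -0.30 by array median and 0.21 over detected probes, both past the threshold.

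Among the proton pump genes 4 of 5 rose with C/EBPalpha. Atp6v1b2 went from 1.54 and 1.5 to 4.02 and 4.08 (1.41 ± 0.046) and Atp6v0d1 from 16.6 and 16.5 to 23.5 and 23.9 (0.52 ± 0.030), while Atp6v1h did not pass (-0.09 ± 0.044), with -0.40 by array median and 0.11 over detected probes, both past the threshold. Tfeb, at 0.223 and 0.190 with empty vectors, reached 0.475 and 0.493 (1.23 ± 0.12). Tfe3 did not pass at 0.01 ± 0.034, and its call and sign depended on the scaling. It was lower by array median (-0.30) and with normexp (-0.10), and higher over detected probes (0.21), after quantile normalization (0.21) and in the deposited series values (0.23).

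IRF8 alone also raised most of the set, led by Psap rather than Neu1. Of 38 genes 29 rose and 3 fell, against 22.7% higher and 25.4% lower among all genes. At least 2-fold rises numbered 3, against 3.57% of all genes. The median was 0.39, against -0.03 for all genes, and with arrays scaled to their median 29 were higher and 2 lower.

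Psap signals with IRF8 were 66.3 and 67.0, against 14.0 and 13.5 with empty vectors, a change of 2.28 ± 0.029 (adjusted p = 4.41e-14). The other lipid genes that rose lay between 0.37 (Npc2) and 1.48 (Gm2a), while Smpd1 changed by -0.23 ± 0.040. Gm2a was dim but well above background on all 8 arrays, at 0.111 and 0.112 with empty vectors and 0.290 and 0.332 with IRF8 (1.48 ± 0.16). Lgmn went from 0.0824 and 0.0614 to 0.145 and 0.170 (1.15 ± 0.28, adjusted p = 0.00467), well above background on all 4 of these arrays but dim.

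Of the 13 glycan hydrolases 7 rose and 1 fell with IRF8. Neu1 rose by 0.69 ± 0.037, Hexa by 0.68 ± 0.036, Fuca1, a fucosidase, by 0.67 ± 0.039, Sgsh by 0.58 ± 0.043 and Man2b1 by 0.54 ± 0.028. Idua changed by -0.27 ± 0.044 with the brighter of its 2 probes and by 0.18 with the other, so its direction is uncertain. Gusb did not pass, with 33.8 and 34.2 against 33.6 and 34.0.

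Of 9 membrane protein genes 8 rose with IRF8 and Cd63 changed by -0.17 ± 0.035, a call lost with the median scaling (-0.13, adjusted p = 0.104). Scarb2 reached 3.12 and 3.13 (0.99 ± 0.039) and Cln3 5.79 and 5.97 (0.75 ± 0.044). Lamp1 rose by 0.52 ± 0.031, Lamp2 by 0.37 ± 0.036 and Laptm5 by 0.36 ± 0.048. Of the pump genes 4 of 5 rose, by 0.28 (Atp6v1a) to 0.47 (Atp6ap1), with Atp6v0d1 at 0.32 ± 0.030. Both transcription factor genes rose, Tfeb to 0.358 and 0.387 (0.86 ± 0.12) and Tfe3 from 6.61 and 6.86 to 8.75 and 8.94 (0.39 ± 0.034).

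With both factors 34 of 38 genes rose and 3 fell, against 38.0% higher and 46.8% lower among all genes. At least 2-fold rises numbered 21, against 17.5% of all genes. The median was 1.12, against -0.10 for all genes, and with arrays scaled to their median 26 were higher and 10 lower.

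Psap signals with both factors were 251 and 254, against 14.0 and 13.5 with empty vectors. The lowest of the pair with both factors was above every other array of the cell line, and the change was 4.20 ± 0.029 (adjusted p = 8.46e-17). The next largest rises were those of Neu1, from 7.30 and 7.86 to 37.2 and 36.2 (2.28 ± 0.037), Scarb2, from 1.57 and 1.57 to 7.48 and 7.42 (2.25 ± 0.039), and Gm2a, from 0.111 and 0.112 to 0.428 and 0.466 (2.01 ± 0.16). Idua reached 182 and 166, from 45.9 and 45.7 (1.92 ± 0.044). Its second probe, at 1.85 and 1.79 with empty vectors and 3.62 and 3.63 with both factors, changed by 0.99.

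All 9 membrane protein genes rose with both factors, among them Cln3 by 1.82, Lamp1 from 99.0 and 103 to 253 and 244 (1.3 ± 0.031), Lamp2 from 7.12 and 6.94 to 17.5 and 17.2 (1.3 ± 0.036) and Laptm5 from 23.5 and 25.2 to 39.0 and 37.9 (0.66 ± 0.048). The Laptm5 call ended with the median scaling (0.01, adjusted p = 0.94). Of the pump genes Atp6ap1 rose by 1.26, Atp6v1b2 by 1.21, Atp6v0d1 by 0.86 ± 0.030 and Atp6v1a by 0.52, the last turning to -0.14 by array median. Atp6v1h did not pass at 0.09, and ranged from -0.56 by array median to 0.38 over detected probes, both past the threshold. Tfeb reached 0.793 and 0.634 (1.79 ± 0.12) and Tfe3 13.8 and 14.2 (1.05 ± 0.034).

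The 3 falls with both factors were those of Gusb, to 10.7 and 10.7 (-1.66 ± 0.027, adjusted p = 5.18e-14), Naglu (-0.23 ± 0.044) and Smpd1 (-0.11 ± 0.040). The Smpd1 call ended without empty vector array 1 (-0.12, adjusted p = 0.0511), empty vector array 2 (-0.10, adjusted p = 0.0931) or array 1 of both factors (-0.09, adjusted p = 0.114). Naglu and Smpd1 turned positive under 3 other scalings. In all 3 Smpd1 passed as higher, at 0.18, and Naglu did not pass. The Gusb fall was seen in both groups that received C/EBPalpha.

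The IRF8 by C/EBPalpha interaction asks whether the joint change differs from the sum of the single changes on the log2 scale. Of 38 genes 15 were positive and 10 negative, against 23.8% and 31.9% of all genes. The median was 0.08, against -0.01 for all genes. The split depended on the scaling, with 3 positive and 25 negative by array median and 20 positive and 8 negative after quantile normalization. The split over detected probes was 19 positive and 8 negative, and that of the deposited series values 20 and 7.

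Psap exceeded the sum by 1.08 ± 0.041 (adjusted p = 1.25e-09), Tfe3 by 0.65 ± 0.048 and Idua by 1.16 ± 0.062. By array median these were 0.69, 0.27 and 0.77, still past the threshold. Idua's second probe gave 0.04, so its excess was seen with 1 of its 2 probes. Npc1 (0.48 ± 0.080), Lipa (0.42 ± 0.10) and Atp6ap1 (0.38 ± 0.054) were also positive, at 0.09, 0.04 and -0.01 by array median. Neu1 fell short of the sum by the largest amount, -1.12 ± 0.052 (adjusted p = 6.47e-09), followed by Atp6v1b2 (-0.62 ± 0.064), Sgsh (-0.39 ± 0.060), Smpd1 (-0.34 ± 0.057), Atp6v1a (-0.32 ± 0.042) and Tpp1 (-0.32 ± 0.089). For Neu1 this matched its signals, which were higher with C/EBPalpha alone than with both factors. Lamp1 was at 0.14 ± 0.043 and passed, but turned to -0.25 by array median and did not pass without empty vector array 2 (0.11, adjusted p = 0.0594), IRF8 array 1 (0.12, adjusted p = 0.0676) or array 1 of both factors (0.11, adjusted p = 0.0707). Lamp2 (0.10, with -0.14 from its second probe), Laptm5 (0.06), Atp6v0d1 (0.03) and Tfeb (-0.30 ± 0.17, adjusted p = 0.16) did not pass. Tfeb passed by array median (-0.69, adjusted p = 0.00226) and without array 1 of both factors (-0.47, adjusted p = 0.0365). Lamp2 passed over detected probes (0.19), after quantile normalization (0.22), in the series values (0.29) and without C/EBPalpha array 1 (0.14, adjusted p = 0.0498), and as negative by array median (-0.28). Atp6v0d1 passed at 0.12, 0.15 and 0.16 under the same 3 scalings and at -0.36 by array median. Laptm5 passed at -0.33 by array median.

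**Figure D5:**
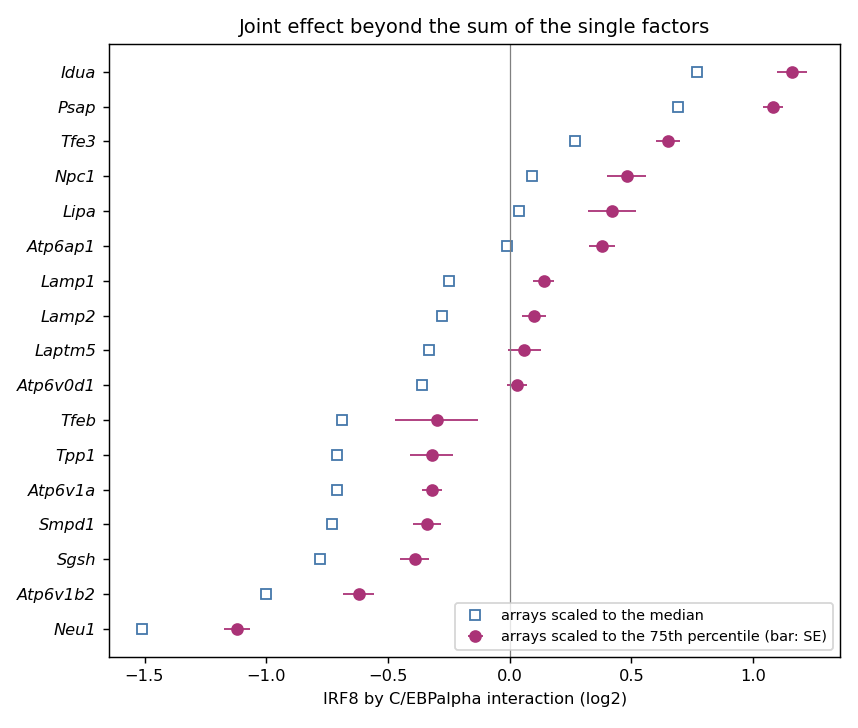
IRF8 by C/EBPalpha interaction (log2, horizontal) of 17 lysosomal genes, with arrays scaled to the 75th percentile (filled, with SE bars) or to the median (open squares). The median scaling moved every value down, and Psap (1.08 and 0.69) and Neu1 (-1.12 and -1.51) kept their sides of 0.

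Genes that mark other cells also differed by factor. The 10 late neutrophil genes summed to 68.4 to 70.0 with empty vectors, 3190 to 3240 with C/EBPalpha, 43.2 to 43.5 with IRF8 and 1790 with both factors on each array. The 11 macrophage genes, mostly through Adgre1, summed to 46.9 to 47.4, 19.2 to 20.4, 71.8 to 72.9 and 34.1 to 34.3 in the same order. The 6 erythroid genes summed to 7.93 to 8.06, 1.53 to 1.64, 2.5 and 1.53 to 1.55, and the 10 basophil, mast cell and eosinophil genes to 37.8 to 37.9, 20.4 to 20.5, 26.2 to 27.6 and 5.37 to 5.44. The 8 dendritic cell genes summed to 249 to 265, 361 to 367, 260 to 276 and 557 to 584, and the 7 B cell genes to 1.64, 2.23, 1.05 to 1.11 and 1.04 to 1.06. Single genes did not always follow these sums. Splits are given for C/EBPalpha, IRF8 and both factors, in that order. Of 8 basophil, mast cell and eosinophil genes tested, 4, 0 and 1 rose and 2, 6 and 5 fell. Of 6 dendritic cell genes 2, 2 and 5 rose and 3, 0 and 1 fell. Of 4 B cell genes 3, 1 and 2 rose and 0, 1 and 1 fell. Among all genes tested 31.6%, 22.7% and 38.0% rose and 47.1%, 25.4% and 46.8% fell. C1qa, Mertk, Vcam1 and Gpnmb were not well above background on any cell line array. The share of these programmes in the lysosomal changes was not tested.

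Lysosomal genes outside the list were read from 74 further genes, 73 of them with a probe matched to the gene name. No probe was matched to Cd68. In Irf8KO MDPs 18 of 70 tested rose and 17 fell (median 0.003, against -0.02 for all genes), shares near the 22.8% and 28.6% of all genes. In Irf8KO cMoPs 32 rose and 20 fell (median 0.109, against -0.03), where 23.0% and 31.1% of all genes did. The sorting receptor gene Igf2r had the largest rise at both stages, 3.20 ± 0.30 and 2.45 ± 0.30, and Pip4p1, a lysosomal phosphatase gene, the largest fall, -1.41 ± 0.090 and -1.36 ± 0.090. Of 12 further pump subunits 4 rose and none fell in Irf8KO MDPs (median 0.034), where 4 of the 5 listed pump genes fell. In Irf8KO cMoPs 9 of the 12 rose and none fell. Atp6ap2 had the largest rise at both stages, 0.29 ± 0.046 and 0.79 ± 0.046.

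In 32Dcl.3 cells 45 of 71 further lysosomal genes rose and 15 fell with C/EBPalpha, where 31.6% and 47.1% of all genes did (median 0.319, against -0.14). With IRF8 46 rose and 9 fell, where 22.7% and 25.4% of all genes did (median 0.229, against -0.03). With both factors 49 rose and 12 fell, where 38.0% and 46.8% of all genes did (median 0.697, against -0.10). Slc11a1, a metal transporter of phagosomes, had the largest rise in all 3, by 3.62 ± 0.11, 2.41 ± 0.11 and 4.67 ± 0.11. Gnptab, which makes the mannose 6-phosphate tag of lysosomal enzymes, had the largest fall with C/EBPalpha (-2.02 ± 0.035) and with both factors (-2.81 ± 0.035), and Igf2r, a receptor for that tag, with IRF8 (-2.39 ± 0.091). Further pump subunits rose in 10, 10 and 11 of 12 cases, with Atp6v0a2 the 1 fall each time. In the stage difference 22 of 70 were positive and 8 negative, against 11.6% and 13.3% of all genes (Arsb at 1.05 ± 0.15, Slc11a1 at -1.72 ± 0.33). In the interaction 24 of 71 were positive and 21 negative, against 23.8% and 31.9% of all genes (Mcoln2 at 1.57 ± 0.090, Slc11a1 at -1.36 ± 0.15).

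The changes of genes with and without a core E-box were set side by side. With both factors the 11 genes with a core had a median change of 0.81 and the 22 genes with a window but no core one of 1.23. With IRF8 the medians were 0.28 and 0.43, with C/EBPalpha 0.52 and 0.53, in Irf8KO MDPs -0.19 and -0.06, and in Irf8KO cMoPs 0.05 and 0.07. The medians of all genes in these comparisons were -0.10, -0.03, -0.14, -0.02 and -0.03. Psap, Scarb2, Neu1 and Gm2a, which had the 4 largest rises with both factors, had no core in their windows.

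The knockout arrays and the 32Dcl.3 arrays share no samples, so loss and gain of IRF8 can be read side by side. Of the 11 genes that fell in Irf8KO cMoPs, 8 rose with IRF8 in 32Dcl.3 cells (72.7%): Asah1, Hexa, Lamp1, Lgmn, Npc2, Psap, Scarb2 and Tfeb. They are 27.6% of the 29 genes that rose with IRF8. The share is near that of the whole list, of which 76.3% rose with IRF8. Of the 11 genes that rose in Irf8KO cMoPs 9 also rose with IRF8 (81.8%). Of the 22 genes that fell in Irf8KO MDPs 15 rose with IRF8 (68.2%).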

How the data were processed

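The scanner files hold intensity values that Agilent Feature Extraction 10.7.3.1 made, per the file headers, by background subtraction and detrending within each array, and flag values ("other" units) for well above background and outliers. A deposited table for the series holds intensity again, scaled further by software that no source used here names. Per the labels' protocols, RNA came from an RNeasy Micro preparation and carried Cy3. The array's headers name build mm9, and gene names came from RefSeq accessions of GRCm38.p6.

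Outlier spots were left out, spots of a probe averaged, and log2 signals set against the array's 75th percentile. A gene was represented by its brightest probe, kept if well above background (over 0.5 of its spots) on both arrays of at least 1 of 4 groups. limma 3.58.1 (R 4.3.3) fitted 4 group means to the 8 arrays of each system by lmFit and eBayes with an intensity trend, with 4 residual degrees of freedom. Two-sided p-values were adjusted (Benjamini-Hochberg) over 11963 genes in progenitors and 13337 in 32Dcl.3 cells. The fit was tested on simulated data. No array was saturated, and the share of probes well above background was 37.27 to 38.67% for MDPs, 43.14 to 44.77% for cMoPs and 49.86 to 56.24% for 32Dcl.3 cells. The 2 arrays per group limit the precision, and p-values measure the spread between these arrays. The 75th percentile was 147 to 460 on the 32Dcl.3 arrays. The replicate numbers did not pair the arrays, as deviations of same-numbered arrays correlated at -0.065 to 0.071.

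The genes named are, per comparison, the 6 largest rises and 6 largest falls among listed genes that passed, plus Lamp1, Lamp2, Psap, Laptm5, Atp6v0d1, Atp6v0d2, Tfeb and Tfe3. Further genes were named to complete a group, after their values were seen. The lysosomal genes, the other lists and the tests were chosen with earlier results of these data known. Figures were drawn with matplotlib 3.10.9.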

Additional observations from a re-analysis of the deposited data

Results flagged for a closer look

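The effect of Irf8 loss differed between cMoPs and MDPs for 23 of 38 lysosomal genes (limma test of the difference, adjusted p under 0.05). Of these 18 were positive and 5 negative, where 11.6% and 13.3% of all genes were. With arrays scaled to their median 9 of the 38 passed. Of the 23, the 13 that the rule for named genes takes are given here. Differences are the change in cMoPs minus that in MDPs. The fitted value for Lgmn, -4.38, has no exact size, since its probe was not well above background in Irf8KO cMoPs. The differences were -0.61 for Tfe3, -0.54 for Psap, -0.21 for Smpd1 and -0.20 for Laptm5. On the other side they were 0.18 for Lamp2, 0.28 for Atp6v0d1, 0.32 for Gla, 0.33 for Atp6ap1, 0.34 for Atp6v1a, 0.75 for Npc1, 0.96 for Neu1 and 1.01 for Cd63 (-1.14 in MDPs, -0.13 in cMoPs). Stage cannot be told apart from slide or from the sex-linked transcripts detected.

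Several of these calls ended when a single array was left out. Such a fit has 1 array in a group and fewer degrees of freedom. A call can then end with little change in size, so its loss does not show that 1 array carried it. The Gla call ended without any 1 of 6 arrays (without WT MDP array 1 it was 0.23, adjusted p = 0.13). The Lamp2 call ended without any 1 of 7, for example without Irf8KO MDP array 2 (0.16, adjusted p = 0.12). The Npc1 call was lost on leaving out WT MDP array 2 (0.57, adjusted p = 0.0599), Irf8KO MDP array 2 (0.74, adjusted p = 0.0522) or any cMoP array (0.69 to 0.81). The Laptm5 call ended without Irf8KO MDP array 1 (-0.18, adjusted p = 0.0722), WT cMoP array 1 (-0.17, adjusted p = 0.0821) or Irf8KO cMoP array 2 (-0.18, adjusted p = 0.0746), and the Smpd1 call without WT cMoP array 2 (-0.19, adjusted p = 0.0617) or Irf8KO cMoP array 1 (-0.19, adjusted p = 0.0675). The calls of Tfe3, Psap, Neu1 and Cd63 held without each array in turn.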

How the results depend on the processing

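The count of lysosomal genes called stayed within 1.5 times its value under each alternative, except in the stage difference. There 23 genes were called, 9 when arrays were scaled to their median and 13 without the intensity trend, and leaving out single arrays gave 13 to 20 (13 without WT cMoP array 1, 15 without Irf8KO cMoP array 1 or 2). Leaving out single arrays gave 23 to 29 genes in MDPs, 18 to 23 in cMoPs, 29 to 31 with C/EBPalpha, 31 to 32 with IRF8, 35 to 37 with both factors and 21 to 23 for the interaction. With a replicate block the counts were 28, 22, 24, 31, 32, 37 and 25 in the order of the report, and the block ended the calls of Sgsh (-0.19, adjusted p = 0.0509) and Atp6ap1 (-0.13, adjusted p = 0.0565) in MDPs, gained Atp6v1b2 in the stage difference (0.38, adjusted p = 0.0323) and changed no other call of the 38 genes. The sign turns listed next are those of genes that the rule for named genes takes. With arrays scaled to their median the sign turned in cMoPs for Atp6v0d1 (-0.13), Gm2a (-0.01), Idua (-0.06), Lamp2 (-0.25), Man2b1 (-0.03) and Tfe3 (-0.26). In the stage difference it turned for Lamp2 (-0.04), and with C/EBPalpha for Laptm5 (-0.06) and Tfe3 (-0.30). In the interaction it turned for Atp6ap1 (-0.01), Atp6v0d1 (-0.36), Lamp1 (-0.25), Lamp2 (-0.28) and Laptm5 (-0.33). Lysosomal genes outside that rule turned too, among them Gaa (-0.22), Smpd1 (-0.21), Mcoln1 (-0.11) and Atp6ap1 (-0.12) in cMoPs. In the stage difference Gaa (-0.02) and Naglu (-0.01) were further cases. Tfe3 with C/EBPalpha was -0.10 after normexp correction. Naglu with C/EBPalpha was 0.05 over detected probes, 0.07 after quantile normalization and 0.06 in the series values, and with both factors 0.06, 0.05 and 0.04, where Smpd1 was 0.18 in each. The cause was not tested. Changes smaller than the shift of all genes' median depend on the scaling, and dim genes such as Lgmn, Npc1 and Gm2a have the widest errors.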
